A study of Mus musculus with 8 samples.

Results

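The genes described here are Pparg and 7 genes of fatty acid uptake (Cd36, Vldlr, Fabp4, Fabp1, Fabp2, Slc27a2 and Slc27a4) in mouse liver. They were taken by symbol from the 18095 genes of the deposited count table. Earlier results of these data were known when the genes were chosen. All 8 were among the 14866 genes with enough counts to be tested. Total liver RNA was sequenced from 4 HFD WT and 4 HFD Inpp4b-/- males, 1 mouse per library. INPP4B is a lipid phosphatase that acts on phosphoinositides, and the comparison asks how liver gene expression differs without it on a high-fat diet (HFD). Both groups were born to dams kept on the HFD and stayed on it until 12 weeks of age, so no library shows the effect of the diet itself. The labels give the strain of both groups as C57BL/6 and the study's methods give FVB. The knockout is a germline one, so the gene is missing in other tissues as well as in liver. The sources used here do not say whether the mice were littermates.

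PPARG is a nuclear receptor that binds DNA as a partner of the retinoid X receptors and is activated by fatty acids and their derivatives. It is the main regulator of fat cell formation, is low in healthy liver, and is known to be higher in fatty liver. Fatty acids reach the hepatocyte as free acids or inside lipoproteins. CD36 and the fatty acid transport proteins encoded by the Slc27a genes carry them across or trap them at membranes, VLDLR takes up triglyceride-rich lipoproteins, and the small fatty acid binding proteins of the Fabp genes hold them in the cytosol.

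The HFD WT libraries held 25893430 to 31427831 counts each and the HFD Inpp4b-/- libraries 32738435 to 36662531, so the groups did not overlap in depth. Inpp4b itself was counted 6, 20, 5 and 8 times in HFD WT replicates 1 to 4 and 33, 10, 9 and 14 times in HFD Inpp4b-/- replicates 1 to 4. The counts of the targeted gene do not separate the genotypes. They are few and taken over the whole gene, so they cannot show whether part of it is missing and are no test of the knockout. Each direction given below rests on how the libraries are labelled. Of 8 hepatocyte markers, 7 were found by symbol and Tf was not, which does not show that this gene was uncounted. None of the 7 was called different by edgeR or DESeq2, with Ttr alone under an unadjusted p of 0.05 by edgeR. Of 8 adipocyte markers only Lipe, which hepatocytes also express, was in the table, and Adipoq, Lep and Plin1 were not listed. No pair of libraries was a near copy.

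The promoters of 7 of these genes, all but Fabp4, were searched for AGGTCA, the core element to which PPARG and other nuclear receptors bind, on both strands of the 250 bases before and 50 bases after each RefSeq start site (GRCm38.p6). The core element was found in 16.3% of 32851 such windows, so its presence in a window is common. It was found in windows of Pparg, Cd36, Fabp1 and Slc27a2, and these letters were not in the windows of Vldlr, Fabp2 or Slc27a4. A direct repeat of the core element with 1 base between, the arrangement bound by PPAR partners, was present exactly in 0.0396% of windows and with at most 1 mismatch in 0.554%. Of the 7 genes searched, Fabp1 had the repeat with a mismatch, 67 bases before its start site and on the opposite strand (chr6:71199812-71199824). The upstream stretches of Fabp1 and Cd36 that lie outside annotated exons are shown because they hold the repeat and a single core element, in capitals. The first is chr6:71199629-71199826 on the plus strand and the second is chr5:17835897-17836146 on the minus strand. The stretch of Cd36 lies inside the annotated gene, whose upstream end is at 17888801, and no start site nearer that end was searched.
Fabp1: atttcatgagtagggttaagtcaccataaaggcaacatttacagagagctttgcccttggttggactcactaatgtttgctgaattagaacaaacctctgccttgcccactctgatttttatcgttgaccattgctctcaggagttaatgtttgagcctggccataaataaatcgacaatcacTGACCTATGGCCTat
Cd36: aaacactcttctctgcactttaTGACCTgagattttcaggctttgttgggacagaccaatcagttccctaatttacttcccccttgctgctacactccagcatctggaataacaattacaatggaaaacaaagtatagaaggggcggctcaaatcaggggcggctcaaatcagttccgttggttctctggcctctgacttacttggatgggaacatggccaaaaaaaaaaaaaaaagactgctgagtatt

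The matches of Pparg and Slc27a2 lay within exons of the GENCODE M21 annotation, and only 30 bases around each are shown, again with the core element in capitals. Pparg had 3 start sites in the RefSeq table, and the matches stood 28 bases before the first (chr6:115361104-115361133) and 9 bases before the second (chr6:115362328-115362357). The match of Slc27a2 stood 220 bases before its start site (chr2:126552792-126552821). The window of Fabp1 also held the TATA box letters TATAAA 30 bases before the start site, which 13.6% of windows hold on either strand. The letters also stood 29 bases before the second start site of Pparg on the opposite strand, and Fabp1 had another core element on the opposite strand, 9 bases before its start site and within an annotated exon. These matches describe letters in the reference sequence and do not show binding.
Pparg, first start site: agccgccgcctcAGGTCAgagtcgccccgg
Pparg, second start site: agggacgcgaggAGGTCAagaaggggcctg
Slc27a2: gcaccacgccttTGACCTtttcaacgtggg

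Mean expression of all 8 genes was higher in HFD Inpp4b-/- than in HFD WT, and none of the 8 passed the thresholds of the test used here. A gene was called when edgeR's quasi-likelihood test gave an adjusted p under 0.10 and the fold change was over 1.3. Of all 14866 tested genes, 1.17% were called, 0.552% as higher and 0.619% as lower in HFD Inpp4b-/-. The median log2 fold change of the 8 genes was 0.45, and that of all tested genes was 0.00275. At an unadjusted p under 0.05, 4 of the 8 genes were higher (Pparg, Cd36, Fabp1 and Slc27a2), which is 50% of them, against 6.8% of all tested genes. Because the 8 genes were chosen with earlier results of these data known, these shares are a description only. With DESeq2, the tool of the study, Pparg, Cd36 and Fabp1 passed the same thresholds on these counts, and 4.04% of 17016 genes did so. The study also required a gene to pass on counts from another aligner, STAR, which were not used here. The libraries of both groups did not overlap for Fabp1 and Slc27a2, which were higher in HFD Inpp4b-/-, as were 4.63% of all tested genes, with 4.09% lower and not overlapping.

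**Figure D1:**
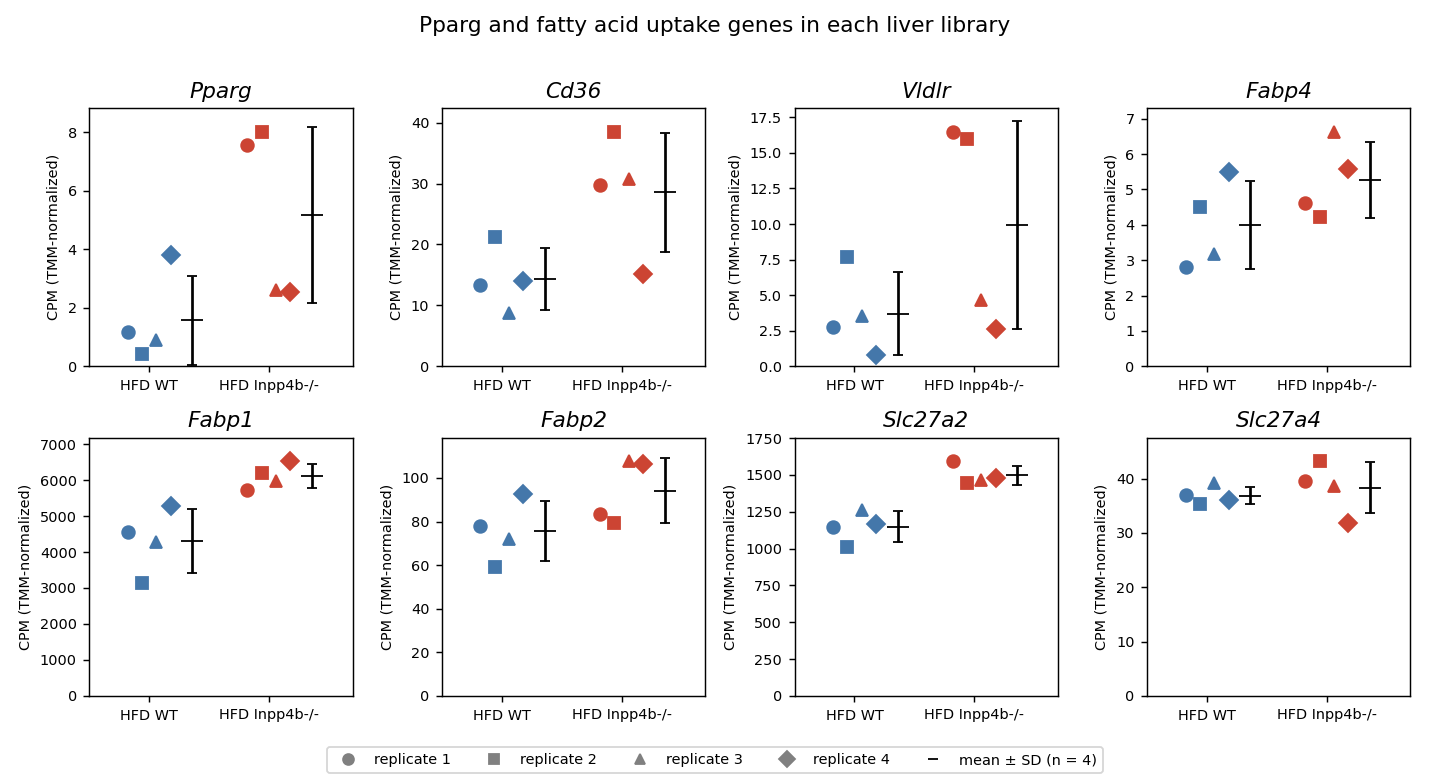
Normalized expression of each gene in CPM, the count scaled to the TMM-normalized total of its library, on a linear axis from 0, with 1 point per library, the marker shape giving the replicate number and the bars the mean ± SD (n = 4 per genotype). The points of the genotypes are separate for Fabp1 and Slc27a2, and replicates 1 and 2 of HFD Inpp4b-/- stand well above all other libraries for Pparg (7.55 and 8.02 CPM) and Vldlr (16.5 and 16.0 CPM).

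Pparg (ENSMUSG00000000440) lies on the plus strand of chromosome 6 of GRCm38, from 115360951 to 115490399. Its normalized expression, in CPM (the count scaled to the TMM-normalized library total), was 1.18, 0.409, 0.910 and 3.80 CPM in HFD WT replicates 1 to 4, from 32, 13, 27 and 99 counts. It was 7.55, 8.02, 2.61 and 2.56 CPM in HFD Inpp4b-/- replicates 1 to 4, from 272, 305, 81 and 91 counts. HFD Inpp4b-/- replicates 1 and 2 were thus the highest of the 8 libraries, while HFD WT replicate 4 was above HFD Inpp4b-/- replicates 3 and 4, so that the groups overlapped. The fold change was 3.32 with a 95% interval of 1.21 to 9.09 (log2 fold change 1.73, standard error 0.65, edgeR adjusted p = 0.279). DESeq2 gave an adjusted p of 0.0858, and the two-sided exact permutation test of the log2 CPM gave p = 0.0857 (n = 4 per genotype, smallest possible p 0.0286). HFD WT replicate 4 moved the value most, since its removal gave a log2 fold change of 2.65 and an adjusted p of 0.105 by edgeR. In whole liver, a difference in RNA per cell and a difference in the number of cells of a type cannot be told apart.

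Cd36 (ENSMUSG00000002944, chromosome 5, 17781690 to 17888801, minus strand) encodes the membrane receptor that takes up long-chain fatty acids in muscle, fat and macrophages and is a known target of PPARG in liver. It had 13.4, 21.2, 8.72 and 14.0 CPM in HFD WT replicates 1 to 4 and 29.8, 38.5, 30.7 and 15.2 CPM in HFD Inpp4b-/- replicates 1 to 4. Of the HFD Inpp4b-/- libraries, 3 were above every HFD WT library, and replicate 4 was below HFD WT replicate 2. The fold change was 1.99 with a 95% interval of 1.24 to 3.20 (log2 fold change 0.99, standard error 0.31, edgeR adjusted p = 0.201). The exact permutation p was 0.0571 (two-sided, n = 4 per genotype), and DESeq2 gave an adjusted p of 0.0411.

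Macrophages also express Cd36, Fabp4 and Pparg. Of 8 markers of macrophages and Kupffer cells, 7 were higher in HFD Inpp4b-/- and Marco lower, with 0 called by edgeR or DESeq2 and 0 at an unadjusted edgeR p under 0.05. Their summed level was 50.3 to 149.7 CPM in HFD WT and 105 to 188 CPM in HFD Inpp4b-/-, so the ranges overlapped. Their part in the values of Cd36, Fabp4 and Pparg was not tested.

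Vldlr (ENSMUSG00000024924, chromosome 19, 27216484 to 27254231, plus strand) encodes the receptor for very low density lipoprotein, which is low in normal liver and abundant in heart, muscle and fat. It had 2.77, 7.72, 3.54 and 0.768 CPM in HFD WT replicates 1 to 4, and 16.5, 16.0, 4.63 and 2.61 CPM in HFD Inpp4b-/- replicates 1 to 4. HFD Inpp4b-/- replicates 1 and 2 were again the highest libraries, and replicates 3 and 4 lay inside the range of HFD WT. Over all genes too, the HFD Inpp4b-/- libraries were closest in the pairs 1 with 2 and 3 with 4 (chi-square of counts per gene 29.7 and 46.75, and 58.0 to 87.6 between the pairs), and the part of this split in the values of Pparg and Vldlr was not tested. The fold change was 2.67, and its 95% interval of 0.905 to 7.87 included no change (log2 fold change 1.42, standard error 0.70, edgeR adjusted p = 0.402, DESeq2 adjusted p = 0.447). The exact permutation p was 0.2 (two-sided, n = 4 per genotype).

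Fabp1 (ENSMUSG00000054422, chromosome 6, 71199827 to 71205023, plus strand) encodes the liver fatty acid binding protein, which is among the most abundant cytosolic proteins of hepatocytes and is a known target of PPARA. It had 4554, 3133, 4269 and 5273 CPM in HFD WT replicates 1 to 4 and 5735, 6211, 5980.3 and 6523 CPM in HFD Inpp4b-/- replicates 1 to 4. Every HFD Inpp4b-/- library was above every HFD WT library. The log2 fold change was 0.50, a fold of 1.42 (standard error 0.15, 95% interval 0.16 to 0.85 on the log2 scale, edgeR adjusted p = 0.201, DESeq2 adjusted p = 0.0570). The exact permutation p was 0.0286 (two-sided, n = 4 per genotype), the smallest that 70 arrangements allow. The gene took 0.425% of all counts in HFD WT and 0.613% in HFD Inpp4b-/-.

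Slc27a2 (ENSMUSG00000027359, chromosome 2, 126552407 to 126588243, plus strand) encodes fatty acid transport protein 2, an acyl-CoA synthetase of liver and kidney that takes part in uptake and in the activation of very long-chain fatty acids. It had 1147, 1011, 1264 and 1170.0 CPM in HFD WT replicates 1 to 4 and 1593, 1449, 1464 and 1481 CPM in HFD Inpp4b-/- replicates 1 to 4. The groups did not overlap, and the spread within each was small, with a coefficient of variation of 9.11% in HFD WT and 4.37% in HFD Inpp4b-/-. The log2 fold change was 0.38 with a 95% interval of 0.17 to 0.60 (standard error 0.097, edgeR adjusted p = 0.138), the lowest adjusted p of the 8 genes. The exact permutation p was 0.0286 (two-sided, n = 4 per genotype). DESeq2 gave an adjusted p of 0.0108 with a fold of 1.296, under the fold threshold. Over 419 bases the exons of Slc27a2 overlap those of Gm26697 on the opposite strand, and the strand setting of the counting is not given in the sources used here.

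For Fabp2, Fabp4 and Slc27a4 the genotypes overlapped and the unadjusted p was above 0.05. Fabp2 (ENSMUSG00000023057, chromosome 3, 122895072 to 122899506), the fatty acid binding protein typical of the intestine, had 78.0, 59.2, 72.1 and 92.5 CPM in HFD WT and 83.3, 79.4, 108 and 106 CPM in HFD Inpp4b-/-. HFD WT replicate 4 was above HFD Inpp4b-/- replicates 1 and 2, and the log2 fold change was 0.32 (standard error 0.15, edgeR adjusted p = 0.389). Of 8 enterocyte markers, Vil1 and Lgals4 were in the table and Sis, Lct and Alpi were not listed.

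Fabp4 (ENSMUSG00000062515, chromosome 3, 10204088 to 10208576), the fatty acid binding protein of fat cells and macrophages and a classical PPARG target, had 2.80, 4.50, 3.17 and 5.49 CPM in HFD WT and 4.61, 4.23, 6.63 and 5.59 CPM in HFD Inpp4b-/-. The groups overlapped, and the log2 fold change was 0.40 (95% interval −0.16 to 0.96, edgeR adjusted p = 0.516). Slc27a4 (ENSMUSG00000059316, chromosome 2, 29802634 to 29817522), which encodes fatty acid transport protein 4, had 37.0, 35.4, 39.1 and 35.98 CPM in HFD WT and 39.6, 43.2, 38.6 and 31.9 CPM in HFD Inpp4b-/-. Its libraries were mixed between the genotypes, and the log2 fold change was 0.05 (95% interval −0.17 to 0.28, edgeR adjusted p = 0.849). That interval excludes a rise or fall as large as the 1.3-fold threshold.

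**Figure D2:**
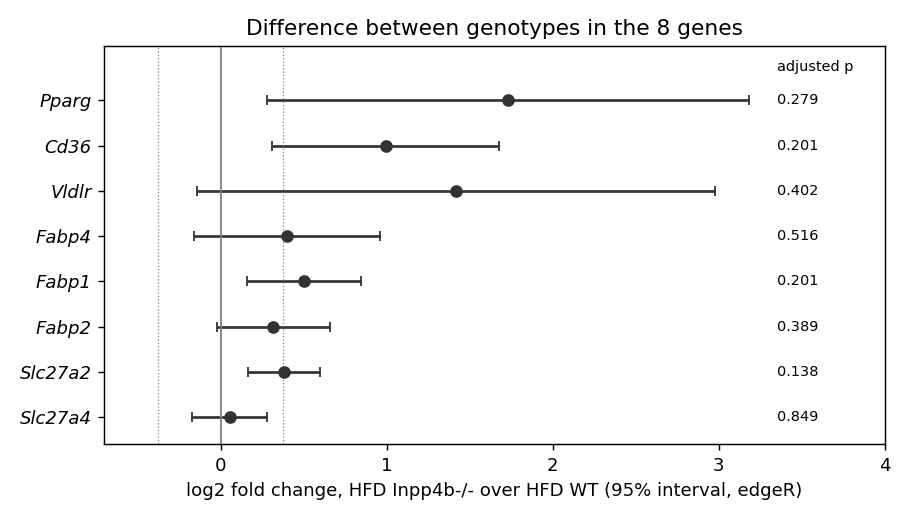
Log2 fold change of each gene in HFD Inpp4b-/- over HFD WT from edgeR, with the 95% interval as a bar, the adjusted p over all tested genes at the right and the 1.3-fold threshold as dotted lines. The intervals of Pparg, Cd36, Fabp1 and Slc27a2 exclude 0 and those of the other 4 genes include it.

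The genes differed far more in level than between genotypes. On the scale of CPM per kilobase of exon (RPKM), Fabp1 was highest, with 7789 ± 1609 in HFD WT and 11053 ± 607 in HFD Inpp4b-/- (SD, n = 4 each). Slc27a2 followed with 306 ± 27.9 and 399 ± 17.4, and Fabp2 with 78.2 ± 14.3 and 97.5 ± 15.4. Slc27a4 had 8.36 ± 0.373 and 8.68 ± 1.07 RPKM, and Cd36 had 3.99 ± 1.43 and 7.95 ± 2.70. In HFD WT every library of Slc27a4 was above every library of Cd36, whereas in HFD Inpp4b-/- the ranges of the pair overlapped (7.23 to 9.79 RPKM for Slc27a4 and 4.24 to 10.7 RPKM for Cd36).

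Fabp4, Pparg and Vldlr were lowest and could not be ordered, since neighbours overlapped in both genotypes. Their mean levels in HFD WT were 0.889, 0.533 and 0.367 RPKM, and in HFD Inpp4b-/- they were 1.17, 1.75 and 0.986 RPKM. Pparg and Vldlr were also the most variable of the 8 genes. The highest library was 21.5 times the lowest for Vldlr and 19.6 times for Pparg, against 4.41 for Cd36, 2.08 for Fabp1 and 1.35 for Slc27a4.

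**Figure D3:**
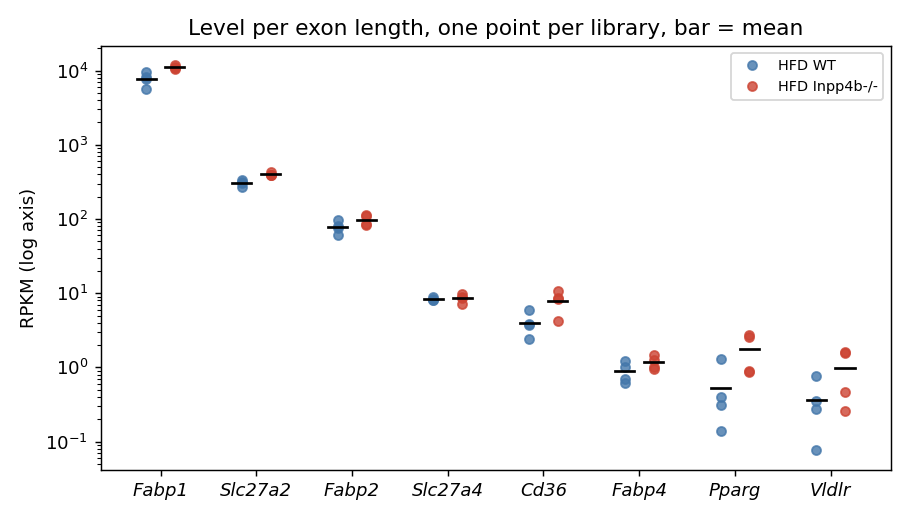
Level of each gene per exon length (RPKM, log axis), with 1 point per library and a line at the mean of each genotype. Fabp1 lies above all other genes in both genotypes, and the points of Fabp4, Pparg and Vldlr overlap near or below 2.71 RPKM.

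Covariation of the 8 genes was measured over the 8 libraries as Pearson's r of log2 CPM for all 28 pairs. Of these, 24 had an r above 0, the median was 0.44, and none had an adjusted p under 0.05, by r or by Spearman's rho. The closest pairs of Pparg were Fabp1 (r = 0.85, exact permutation p = 0.00516, adjusted p = 0.0502, Spearman's rho = 0.69, permutation p = 0.0694) and Slc27a2 (r = 0.78, exact permutation p = 0.0268, adjusted p = 0.188, rho = 0.60, permutation p = 0.132). Without the 2 libraries farthest from the median of Pparg, replicate 2 of each genotype, the r values were 0.67 with Fabp1 and 0.60 with Slc27a2. Taken as deviations from the genotype means, they were 0.67 (exact permutation p within genotype = 0.156, adjusted p = 0.608) and 0.46 (0.378, adjusted p = 0.623). Neither was thus distinguishable from 0 by that test.

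For the genes usually named as PPARG targets, the r of Pparg over the 8 libraries was 0.57 with Cd36 (exact permutation p = 0.142, adjusted p = 0.442, rho = 0.62, permutation p = 0.115). It was 0.36 with Fabp4 (exact permutation p = 0.376, adjusted p = 0.554, rho = 0.29, permutation p = 0.501) and 0.26 with Vldlr (exact permutation p = 0.533, adjusted p = 0.648, rho = 0.29, permutation p = 0.501). Without the 2 libraries farthest from the median of Pparg, these r values were 0.74, 0.63 and 0.34. By rho, and without those libraries, Cd36 was at least as close to Pparg as Slc27a2 was. Single libraries moved the r with Vldlr from 0.015 (without HFD Inpp4b-/- replicate 2) to 0.57 (without HFD WT replicate 4) and that with Fabp4 from 0.23 (without HFD WT replicate 3) to 0.49 (without HFD WT replicate 2). As deviations from the genotype means, the r values with Cd36, Fabp4 and Vldlr were 0.12, −0.04 and −0.18 (exact permutation p within genotype = 0.710, 0.950 and 0.698). None of these 3 r values was distinguishable from 0, either over the 8 libraries or as deviations from the genotype means.

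The order of the libraries shows how Pparg and Vldlr ran in each genotype. In HFD WT the order was reversed, with replicate 4 highest for Pparg (3.80 CPM) and lowest for Vldlr (0.768 CPM) and replicate 2 lowest for Pparg (0.409 CPM) and highest for Vldlr (7.72 CPM). In HFD Inpp4b-/-, replicates 1 and 2 were high and replicates 3 and 4 low for both genes. With 4 libraries in a genotype, no correlation within one is given.

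Among the other pairs, Fabp1 had an r of 0.86 with Fabp2 (exact permutation p = 0.00538, adjusted p = 0.0502, rho = 0.79, permutation p = 0.0279, adjusted p = 0.332). With Slc27a2, Fabp1 also had an r of 0.86 (exact permutation p = 0.00533, adjusted p = 0.0502, rho = 0.76, permutation p = 0.0368, adjusted p = 0.332). Without the 2 libraries farthest from the median of Fabp1, HFD WT replicates 2 and 3, they were 0.54 and 0.81, and as deviations from the genotype means 0.78 and 0.55. Cd36 and Vldlr had an r of 0.71 (exact permutation p = 0.0493, adjusted p = 0.276, rho = 0.67, permutation p = 0.0831), 0.77 without the 2 libraries farthest from the median of Cd36 and 0.56 as deviations. Vldlr and Fabp2 had an r of −0.34 over all libraries (exact permutation p = 0.410, adjusted p = 0.575, rho = −0.26, permutation p = 0.536), −0.36 without the 2 libraries farthest from the median of Vldlr, and −0.96 as deviations from the genotype means (exact permutation p = 0.0139 within genotype, adjusted p = 0.356). Of the 28 pairs, 15 had a deviation r above 0, with a median of 0.082, and none passed adjustment.

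**Figure D4:**
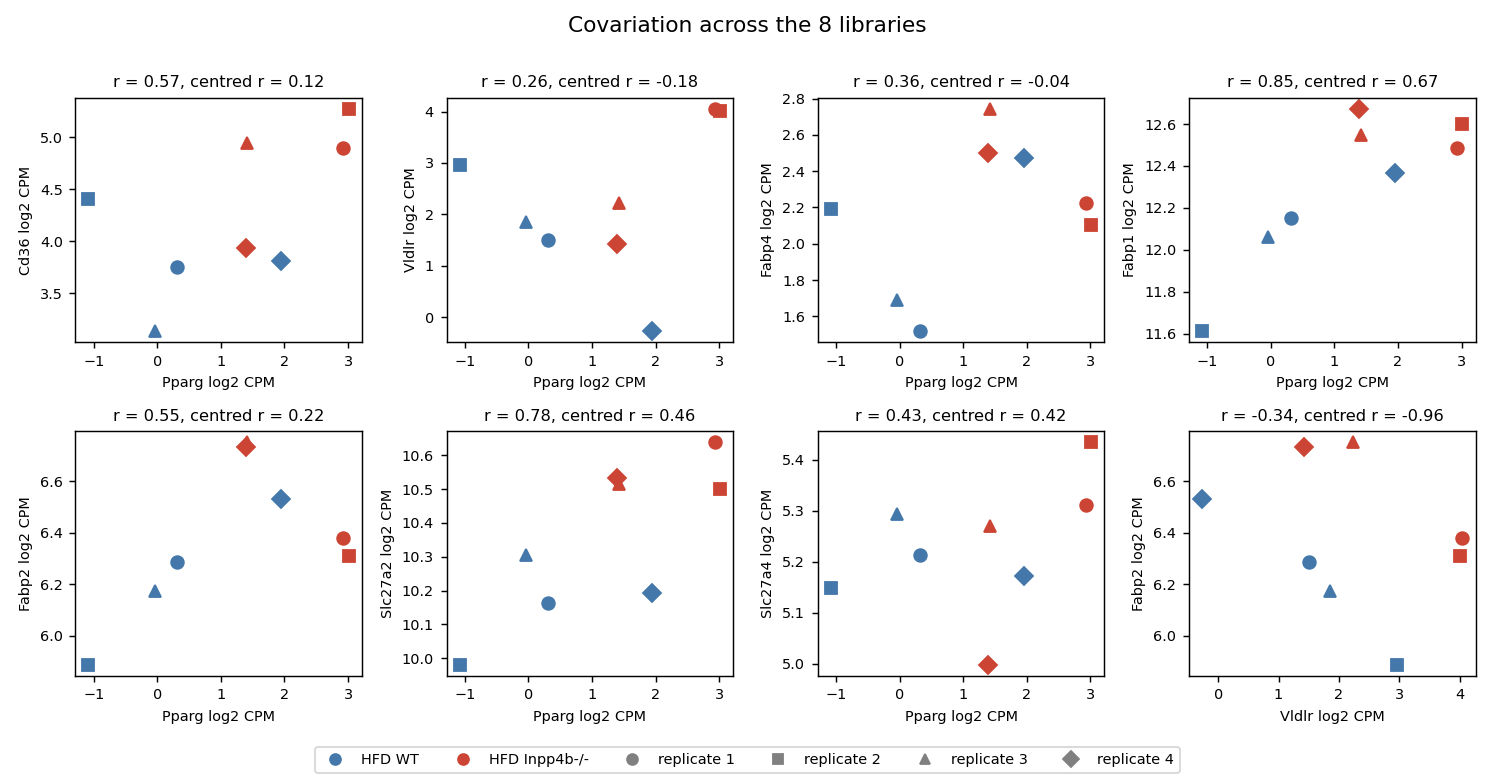
Log2 CPM of Pparg against the 7 other genes, and of Vldlr against Fabp2 in the last panel, with 1 point per library, colour for genotype and shape for replicate number. The r over all 8 libraries and the r of the deviations from the genotype means stand above each panel, and the HFD WT library that is highest for Pparg is lowest for Vldlr.

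Of the 14865 other tested genes, many varied with Pparg more closely than the uptake genes did. Fabp1 ranked 133rd by r, Slc27a2 358th, Cd36 1500th and Vldlr 4415th. The 5 highest, leaving out genes whose mean count was under 50, were D11Wsu47e (r = 0.99), Rad51b, a DNA repair gene (0.98), Cpne2, a copine (0.97), Fgf2, a fibroblast growth factor (0.97), and Gm4952 (0.97). Rad51b had 11.4, 3.46, 8.89 and 19.0 CPM in HFD WT and 36.3, 34.8, 13.3 and 16.8 CPM in HFD Inpp4b-/-, with the same libraries high and low as for Pparg. By deviations from the genotype means, the 5 closest were Nubp2 (r = 0.99), Noc2l (0.98), Tbrg1 (0.98), D11Wsu47e (0.98) and Dus1l (0.98). These genes were picked as the most alike among all tested genes and over 8 libraries, so their r values are given as a description.

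The lists that follow include the genes above where they belong, and in either direction 13.9% of all tested genes had an unadjusted p under 0.05. Of 15 PPAR receptors and partners, all were tested, 5 were higher and 10 lower in HFD Inpp4b-/-, and the median log2 fold change was −0.05. With edgeR 0 were called and 1, Pparg, had an unadjusted p under 0.05, and DESeq2 called 1, Pparg. The related receptors Ppara and Ppard had log2 fold changes of −0.06 and −0.05, and the DNA-binding partner Rxra had −0.12, with adjusted p of 0.926, 0.933 and 0.621. The largest differences after Pparg were Ppargc1b and Ppargc1a, coactivators of mitochondrial and lipid genes (0.48 and 0.33, adjusted p = 0.604 and 0.515), and Rxrg, another DNA-binding partner (0.29, adjusted p = 0.718). Of 13 transcription factors linked to Pparg expression, 7 were higher, and the median of their log2 fold changes was 0.03. With edgeR 0 were called and 3 had an unadjusted p under 0.05, and DESeq2 called 1, Cebpd. Cebpd and Cebpb, which precede Pparg in fat cell formation, had −1.24 and −0.66 (adjusted p = 0.213 and 0.400), Nr0b2 had 0.79 (0.358), and Srebf1, the gene of the lipogenic factor SREBP1, had 0.57 (0.492).

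Among genes of fatty acid transport and activation at membranes, 13 of 15 were in the table and tested, with 1 called lower by edgeR, none called higher and a median log2 fold change of 0.11. An unadjusted p under 0.05 was found for 5 (Cd36, Slc27a2, Cav1, Acsl4 and Acsl5), and DESeq2 called 2, Cd36 higher and Acsl4 lower. The called gene was Acsl4, an acyl-CoA synthetase that prefers arachidonic acid. Acsl4 had 114 ± 18.6 CPM in HFD WT and 59.8 ± 12.7 CPM in HFD Inpp4b-/- (SD, n = 4 each), and it fell by 0.94 on the log2 scale (standard error 0.17, edgeR adjusted p = 0.0528). The ranges of 88.9 to 131 and 44.9 to 71.1 CPM did not overlap. It was no longer called without HFD WT replicate 1 or 3 (adjusted p = 0.134 and 0.106) or without HFD Inpp4b-/- replicate 1, 2 or 3 (0.109, 0.175 and 0.108). Cav1, a caveola protein, had a log2 fold change of −0.74 (adjusted p = 0.266).

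Of 10 cytosolic fatty acid binding proteins, 7 were in the table and tested, 4 higher and 3 lower, with a median log2 fold change of 0.32. With edgeR 0 were called and 2 had an unadjusted p under 0.05, and DESeq2 called 1, Fabp1. The 4 that were higher were Fabp1, Fabp2, Fabp4 and Fabp7. Fabp5, the epidermal fatty acid binding protein, had 39.0 ± 21.7 CPM in HFD WT and 20.3 ± 11.3 CPM in HFD Inpp4b-/- (log2 fold change −0.94, adjusted p = 0.432), and its groups overlapped.

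Of 16 lipoprotein receptors, lipases and their regulators, 15 were tested, with 1 called lower by edgeR, none called higher and a median log2 fold change of −0.09. An unadjusted p under 0.05 was found for 1, Lsr, and DESeq2 called 1, Lsr. The called gene was Lsr, the lipolysis-stimulated lipoprotein receptor, which takes up triglyceride-rich particles in liver. Lsr had 68.4 ± 5.01 CPM in HFD WT and 41.9 ± 2.28 CPM in HFD Inpp4b-/- (SD, n = 4 each), and it fell by 0.71 on the log2 scale (standard error 0.084, edgeR adjusted p = 0.00818). No library of one group came near the other, with 65.2 to 75.8 CPM against 39.1 to 43.8 CPM. Apoc2, the cofactor of lipoprotein lipase, and Angptl8, a regulator of that lipase, had log2 fold changes of −0.60 and −0.42 (adjusted p = 0.609 and 0.722).

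Of 20 PPARG target genes, 16 were in the table and tested, 10 were higher and 6 lower, and the median log2 fold change was 0.09. With edgeR 0 were called and 4 had an unadjusted p under 0.05 (Cd36, Plin4, Mogat1 and Gpd1), and DESeq2 called 2, Cd36 and Plin4. Beside Cd36 and Vldlr, Mogat1, a triglyceride synthesis enzyme, was at 0.461 to 3.50 CPM in HFD WT and 1.601 to 11.8 CPM in HFD Inpp4b-/- (log2 fold change 1.49, standard error 0.66, adjusted p = 0.354). Plin4, a lipid droplet coat protein, was at 3.84 to 19.9 CPM in HFD WT and 2.50 to 5.90 CPM in HFD Inpp4b-/- (log2 fold change −1.31, standard error 0.51, adjusted p = 0.291). The lipid droplet genes Plin2 and Cidec had log2 fold changes of 0.31 and 0.07 (adjusted p = 0.505 and 0.951). Adipoq, Cfd, Cidea and Aqp7, targets in fat cells, were not listed in the table.

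Of 20 PPARA target genes, which share the nuclear receptor site with PPARG targets, all were tested, 14 were higher and 6 lower, and the median log2 fold change was 0.23. With edgeR 0 were called and 6 had an unadjusted p under 0.05, and DESeq2 called 4, Acaa1b, Acot2, Fabp1 and Cyp4a14. Acaa1b, a peroxisomal thiolase, had 0.70 (adjusted p = 0.103), Acot2 0.54 (0.185) and Fgf21 1.15 (0.370), while Cyp4a14, a fatty acid hydroxylase with near-identical copies, had −0.999 (0.264).

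**Figure D5:**
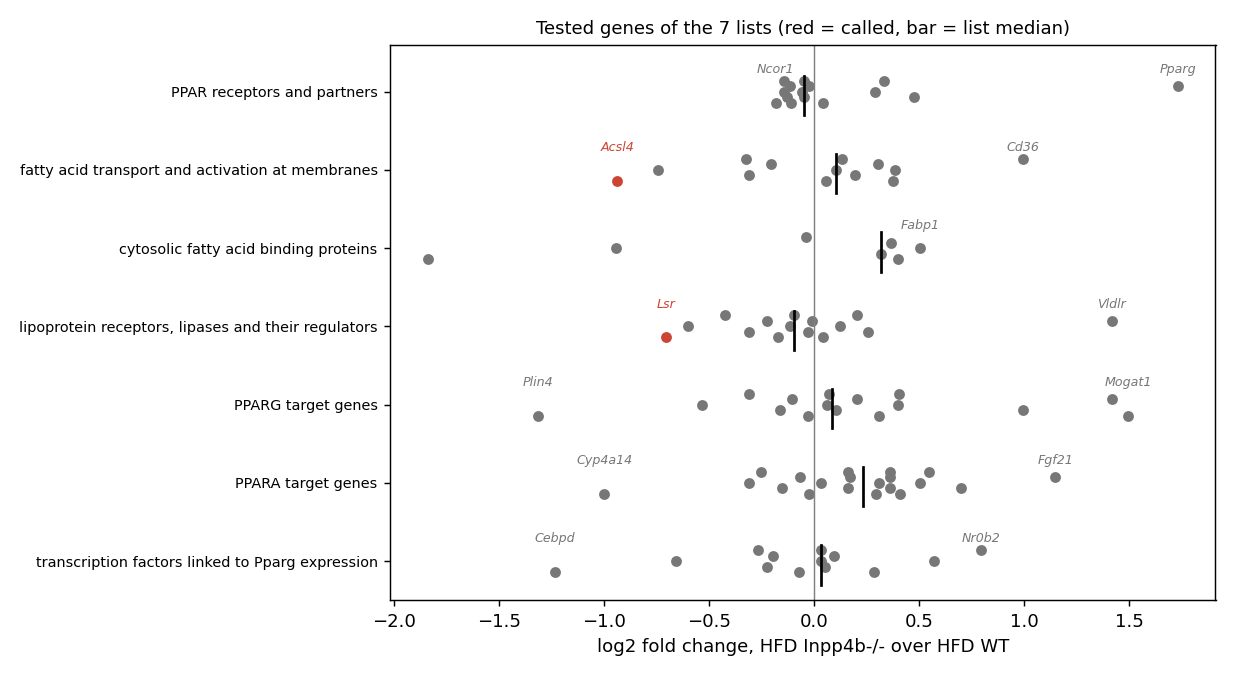
Log2 fold change (HFD Inpp4b-/- over HFD WT) of each tested gene in the 7 lists, with called genes in red, a black bar at the list median, and names for called genes and for outermost genes whose mean count reached 50. Acsl4 and Lsr are the called genes, and the list medians lie between −0.09 and 0.32.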

How the data were processed

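The authors aligned the reads to GRCm38 with HISAT2 and, separately, with STAR, and kept genes differentially expressed after both. For HISAT2 they counted reads per gene with HTSeq and deposited raw counts, which were used here. A deposited table of the same counts divided by a size factor per library was not used. The annotation release and strand setting are not given in the sources used here. The labels name Ribo-Zero depletion, which the study's methods do not.

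Identifiers were matched to GENCODE M21. The test was edgeR's quasi-likelihood F test (version 4.0.16 in R 4.3.3, TMM scaling, filterByExpr, no covariate), with Benjamini-Hochberg adjustment over 14866 genes. CPM used TMM-normalized totals, log2 CPM a prior count of 2, and RPKM the union of exons. DESeq2 1.42.0, other scalings and filters, thinning to the smallest total, a block for the replicate number and fits without 1 library were tried as alternatives. Exact permutation tests ran over 70 arrangements and correlations over 40320 pairings (Python 3.11.15, scipy 1.17.1). The fit was tested on simulated data. Promoter windows came from RefSeq, GRCm38.p6.

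The genes, lists and tests were chosen with earlier results of these data known. Named are the 8 genes, every called list gene, the 4 largest absolute log2 fold changes per list (mean of at least 50 counts) and the 5 genes closest to Pparg by each r. Ppara, Ppard, Rxra, Fabp7, Plin2, Cidec, Gpd1, Acsl5, the markers Ttr, Marco and Lrat and genes not in the table were named after their values were seen. Replicate numbers came from the titles. Some genes of the lists are not reported here, and the list counts leave them out. Each p-value sets a difference or a correlation against the variation between these mice.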

Additional observations from a re-analysis of the deposited data

How the results depend on the processing

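Over 15 alternatives, the 8 genes gave 120 log2 fold changes, of which 119 kept their direction. The exception was Slc27a4, which ranged from −0.0069 (without HFD Inpp4b-/- replicate 2) to 0.13 when 1 library was left out. None of the 8 genes was called in any fit with edgeR, and 3 were called with DESeq2. Pparg ranged from 1.40 to 2.65 on the log2 scale, Cd36 from 0.82 to 1.24, Vldlr from 1.06 to 2.06, Fabp1 from 0.37 to 0.62 and Slc27a2 from 0.32 to 0.43. The lowest adjusted p with edgeR was 0.105 for Pparg, 0.104 for Cd36, 0.123 for Fabp1 and 0.110 for Slc27a2. With DESeq2, 688 genes in all and 7 list genes other than the 8 were called, against 174 and 2. When 1 library was left out, the lowest count was 53 (HFD Inpp4b-/- replicate 2 removed) and the highest 345 (HFD WT replicate 2 removed), with 1 to 3 list genes, and 0 to 1 pairs with an adjusted p of r under 0.05. The r of Pparg with Fabp2 then ranged from 0.18 (without HFD WT replicate 2) to 0.70 (without HFD Inpp4b-/- replicate 2) and with Slc27a4 from 0.16 (without HFD Inpp4b-/- replicate 2) to 0.66 (without HFD Inpp4b-/- replicate 4). The cause was not tested.

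A fit with a replicate block called 26 genes, 0 list genes and none of the 8. Pparg then had an adjusted p of 0.488, and Lsr, called in the 14 other alternatives, had 0.125. The deviations of same-numbered libraries did not correlate positively (r = −0.114, −0.131, −0.0104 and −0.17). With 4 libraries per genotype, these values cannot show whether same-numbered mice shared a litter or batch. Taken as deviations from the genotype means, the r of Pparg with Vldlr was −0.18 and with Fabp4 −0.043. With the longest transcript in place of the exon union, Slc27a2 was at 393 RPKM in HFD WT and 513 RPKM in HFD Inpp4b-/-. At 13 to 305 counts per library, Pparg is limited by the spread between mice and by counting error.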

Other observations

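Among markers of other cell types in the same libraries, 8 endothelial markers summed to 164 to 211 CPM in HFD WT and 161 to 211 CPM in HFD Inpp4b-/-, and 7 markers of stellate cells and fibroblasts to 179 to 252 CPM and 191 to 228 CPM, with no gene of either list called by edgeR. At an unadjusted edgeR p under 0.05 there were 0 endothelial and 2 stellate cell and fibroblast genes, and DESeq2 called 0 and 1. That gene was Lrat, which esterifies retinol in stellate cells, at 6.38 to 11.2 CPM in HFD WT and 11.3 to 16.0 CPM in HFD Inpp4b-/- (log2 fold change 0.73, edgeR adjusted p = 0.164). Of 6 erythroid markers, 5 were in the table and Hba-a2 was called lower (log2 fold change −2.92, adjusted p = 0.0570). Hba-a1, its near-identical copy, had 0.85 (adjusted p = 0.443), so the split of reads between the copies is uncertain.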
